A study of Mus musculus with 24 samples.

Results

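The regions described here are those that Klf4, Oct4 or Sox2 occupied in mitotic mouse embryonic stem cells. Each factor has a mitotic set, which is its merged regions with a peak in 2 or more of its mitotic lists, and the 3 sets were compared with each other. The sets held 4133 regions for Klf4 (3 lists), 1113 for Oct4 (2 lists) and 1639 for Sox2 (2 lists). Joined where they overlapped, they made 5801 combined regions, of 18045 combined regions with a peak in any of the 7 mitotic lists and 73400 with a peak in any of the 17 lists of the series. The rule fixed which regions are members, so the share of merged regions that met it is a description: 34.4% for Klf4, 20.6% for Oct4 and 34% for Sox2.

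The series profiled protein-DNA contacts by chromatin immunoprecipitation and sequencing (ChIP-seq) in 24 samples, of which 17 had a peak list and 7 were inputs. All groups used here were V6.5 embryonic stem cells of a C57BL/6-129 background. The cells had been grown on irradiated feeder cells with LIF and serum, then on gelatin with inhibitors of Mek1 and Gsk3. They were arrested for 7 h with nocodazole, which blocks the mitotic spindle, and were then shaken off the plate. All groups used here were fixed with 1% formaldehyde for 10 min. The labels give the dose as 100 ug/ml, which is unusually high and may hold an error of unit. The groups were the mitotic Klf4 lists (antibody R&D AF3158), the mitotic Oct4 lists (antibody Santa Cruz SC-8628) and the mitotic Sox2 lists (antibody R&D AF2018). A further pair of mitotic lists, for acetylation of lysine 27 on histone H3 (H3K27ac), served as a separate readout. The labels do not say whether lists of a factor came from separate cultures, so the spread between them may be technical. Every library used here was of this 1 cell line, and no mitotic control without the factors was used here.

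Klf4 is a zinc finger protein that reads GC-rich boxes, and it is known from both promoters and enhancers. Oct4, a POU domain protein encoded by Pou5f1, reads an octamer motif, and Sox2, an HMG box protein, reads a short AT-rich motif. Oct4 and Sox2 are known to bind side by side on composite sites in the enhancers of pluripotency genes. During mitosis chromosomes condense and most transcription stops, and some factors stay on part of their sites. H3K27ac marks active promoters and enhancers.

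The lists held 5754, 3795 and 8438 peaks in the Klf4 lists, 1246 and 5282 in the Oct4 lists, and 4537 and 1940 in the Sox2 lists. Oct4 mitotic 1 and Sox2 mitotic 2 were the short lists of their factors, and 9.47% and 22.5% of their peaks had a q above 0.05. Klf4 mitotic 2 had 2.40% such peaks and the other 4 lists had none. Klf4 mitotic 1 and 2 carry project label EC-DG-3514, as do both mitotic H3K27ac lists, while Klf4 mitotic 3 and all Oct4 and Sox2 lists carry EC-EA-3702. Read depth was not given in the files used here, so the length of a list was the measure of yield. All 8 stem cell marker genes had a mitotic H3K27ac region over the gene, against 2 of 20 feeder fibroblast markers, 7 of 22 neural progenitor markers and 45.6% of all genes. The 8 are part of the naive pluripotency list counted below, in which 35 of 41 genes had such a region.

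Sequence could be shown for promoters, the 250 bases before a transcription start (RefSeq, build GRCm38.p6, which is mm10). These are printed in the direction of the gene. Nanog, 1700019D03Rik, Nrarp and Pipox are shown because they carry an octamer core beside a Sox core under an Oct4 peak. Ass1, an enzyme of arginine synthesis, and Arhgap28, a GTPase regulator, are shown for the boxes that Klf4 reads. Mobp, a myelin protein gene, is shown because the third strongest region of the Sox2 set alone lay on it. Capitals mark a Klf box (GGGTGTG or GGGCGTG), an octamer core (ATGCAA), a Sox core (ATTGT) or a second Sox motif (CTTTGTT), each on either strand.
Nanog, chr6:122707239-122707488, plus strand: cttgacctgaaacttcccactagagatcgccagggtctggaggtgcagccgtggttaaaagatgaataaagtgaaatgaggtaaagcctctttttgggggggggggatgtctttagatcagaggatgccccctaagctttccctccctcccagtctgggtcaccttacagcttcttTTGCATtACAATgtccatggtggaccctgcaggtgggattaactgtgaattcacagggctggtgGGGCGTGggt
1700019D03Rik, chr1:52953615-52953864, minus strand: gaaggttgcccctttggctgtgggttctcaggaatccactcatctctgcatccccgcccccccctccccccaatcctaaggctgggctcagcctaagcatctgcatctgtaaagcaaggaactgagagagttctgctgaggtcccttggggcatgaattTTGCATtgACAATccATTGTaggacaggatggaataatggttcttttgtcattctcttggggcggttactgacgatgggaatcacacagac
Nrarp, chr2:25180508-25180757, plus strand: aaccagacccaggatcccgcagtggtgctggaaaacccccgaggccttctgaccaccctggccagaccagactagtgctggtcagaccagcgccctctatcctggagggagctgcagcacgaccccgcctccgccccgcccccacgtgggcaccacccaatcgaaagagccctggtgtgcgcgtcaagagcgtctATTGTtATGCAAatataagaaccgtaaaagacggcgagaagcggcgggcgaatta
Pipox, chr11:77893873-77894122, minus strand: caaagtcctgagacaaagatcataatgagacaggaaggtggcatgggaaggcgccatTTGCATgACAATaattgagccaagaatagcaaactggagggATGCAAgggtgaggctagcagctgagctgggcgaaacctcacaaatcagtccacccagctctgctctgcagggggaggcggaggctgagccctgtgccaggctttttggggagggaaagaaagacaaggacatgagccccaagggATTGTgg
Ass1, chr2:31470020-31470269, plus strand: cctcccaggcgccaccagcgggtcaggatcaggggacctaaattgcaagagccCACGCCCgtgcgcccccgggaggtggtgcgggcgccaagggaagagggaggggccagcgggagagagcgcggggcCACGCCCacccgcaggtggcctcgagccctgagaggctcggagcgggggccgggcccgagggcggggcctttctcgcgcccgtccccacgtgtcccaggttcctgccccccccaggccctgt
Arhgap28, chr17:68004109-68004358, minus strand: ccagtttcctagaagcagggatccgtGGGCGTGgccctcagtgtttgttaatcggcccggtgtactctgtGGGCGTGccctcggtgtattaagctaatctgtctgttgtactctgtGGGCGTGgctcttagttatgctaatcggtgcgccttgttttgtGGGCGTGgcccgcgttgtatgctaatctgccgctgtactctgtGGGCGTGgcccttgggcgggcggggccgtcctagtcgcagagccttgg
Mobp, chr9:120149492-120149741, plus strand: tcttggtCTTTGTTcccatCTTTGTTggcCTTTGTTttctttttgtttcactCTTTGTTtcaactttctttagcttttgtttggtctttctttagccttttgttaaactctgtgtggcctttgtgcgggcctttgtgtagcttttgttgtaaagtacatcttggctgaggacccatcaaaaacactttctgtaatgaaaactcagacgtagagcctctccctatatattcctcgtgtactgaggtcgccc

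The Nanog promoter held TTGCAT and ACAAT 1 base apart, starting at position -74 from the transcription start, and a single Klf box near its 3′ end. A region of all 3 sets covered it (chr6:122707229-122707643), with a fold enrichment over background of 5.77, 4.72 and 5.71 in the Klf4 lists, 6.66 and 10.6 in the Oct4 lists, and 6.18 and 5.76 in the Sox2 lists. The 1700019D03Rik promoter had the same letters 2 bases apart and folds of 6.26, 4.72 and 8.89 in the Klf4 lists, 8.91 and 9.38 in the Oct4 lists, and 8.77 and 7.13 in the Sox2 lists. Nrarp, a Notch feedback gene, carried the pair on the other strand and also lay in all 3 sets, with folds of 5.29 and 5.39 in Klf4 mitotic 1 and 2, 4.90 and 6.76 for Oct4, and 9.14 and 5.59 for Sox2. Pipox was in the Oct4 set alone, at 4.12 and 8.55, and had a peak of 6.92 in Sox2 mitotic 1. The Arhgap28 promoter held 5 Klf boxes and the Ass1 promoter held 2, and both lay in the Klf4 set alone. Their Klf4 folds were 11.5, 7.41 and 10.5 at Arhgap28 and 13.8, 7.90 and 15.8 at Ass1. Arhgap28 also had a peak of 4.34 in Oct4 mitotic 2, which did not meet the rule. The Hdac4 promoter, under the strongest promoter region of the Klf4 set alone, is not printed and held no Klf box in its 250 bases. Cnpy1, whose promoter lay in all 3 sets, is not printed either and held none of the marked motifs there. Mobp had Sox2 folds of 22.8 and 19.0, a peak of 5.10 in Klf4 mitotic 3, no octamer core and 4 copies of CTTTGTT.

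Over 21238 promoter windows of 17469 genes (250 bases before to 50 after a start), 1593 windows met the Klf4 set, 26 the Oct4 set and 16 the Sox2 set. A Klf box was in 42.6% of the Klf4 windows, 19.2% of the Oct4 windows and 18.8% of the Sox2 windows, against 17.8% of all windows. Windows under Klf4 were also richer in G and C, with a median of 66.3% against 56.3% for all windows. Within 5 equal groups of windows by GC content, from low to high, 10.0%, 32.4%, 41.1%, 46.4% and 42.0% of windows in the Klf4 set had the box, against 5.52%, 12.6%, 17.9%, 22.0% and 23.1% of windows outside it. The box was thus more frequent in the set in each of the 5 groups, of which the lowest held only 10 windows of the set. The octamer TGCAAAT was in 2.32% of the Klf4 windows, 23.1% of the Oct4 windows (6 of 26) and 18.8% of the Sox2 windows (3 of 16), against 3.74% of all. The Sox motif ATTGTT was in 4.21%, 7.69% and 18.8% of the Klf4, Oct4 and Sox2 windows, against 9.05% of all.

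The cores and their spacing were chosen after these values had been seen, and CTTTGTT was also not among the motifs planned beforehand. A TTGCAT followed within 3 bases by ACAAT, on either strand, was in a promoter window of 10 of 17469 genes. Among genes with a set region on the promoter it was found in 4 of 1426 for Klf4, 4 of 22 for Oct4 and 3 of 14 for Sox2. Nanog, 1700019D03Rik and Nrarp were in all 3 of these groups, Pipox had Oct4 alone and Art5 had Klf4 alone. CTTTGTT was in 2.51% of the Klf4 windows, 0 of the 26 Oct4 windows and 25% of the Sox2 windows (4 of 16), against 5.01% of all. The octamer core contains part of TGCAAAT and the Sox core is part of ATTGTT, so these counts overlap. A match is a description of the letters in the window.

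Oct4 and Sox2 shared most of what was shared, and Klf4 stood largely apart. Of the 5801 combined regions, 3682 were in the Klf4 set alone, 397 in Oct4 alone and 812 in Sox2 alone. All 3 sets met in 169 regions, Klf4 and Oct4 in 86, Klf4 and Sox2 in 196, and Oct4 and Sox2 in 459. A peak in all 7 lists was found in 95 regions. As shares of the sets, 89.1% of Klf4 regions (88.1 to 90.0, 95% Wilson interval), 35.7% of Oct4 regions (32.9 to 38.5) and 49.5% of Sox2 regions (47.1 to 52.0) were in neither other set. Intervals cover counting error only.

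**Figure D1:**
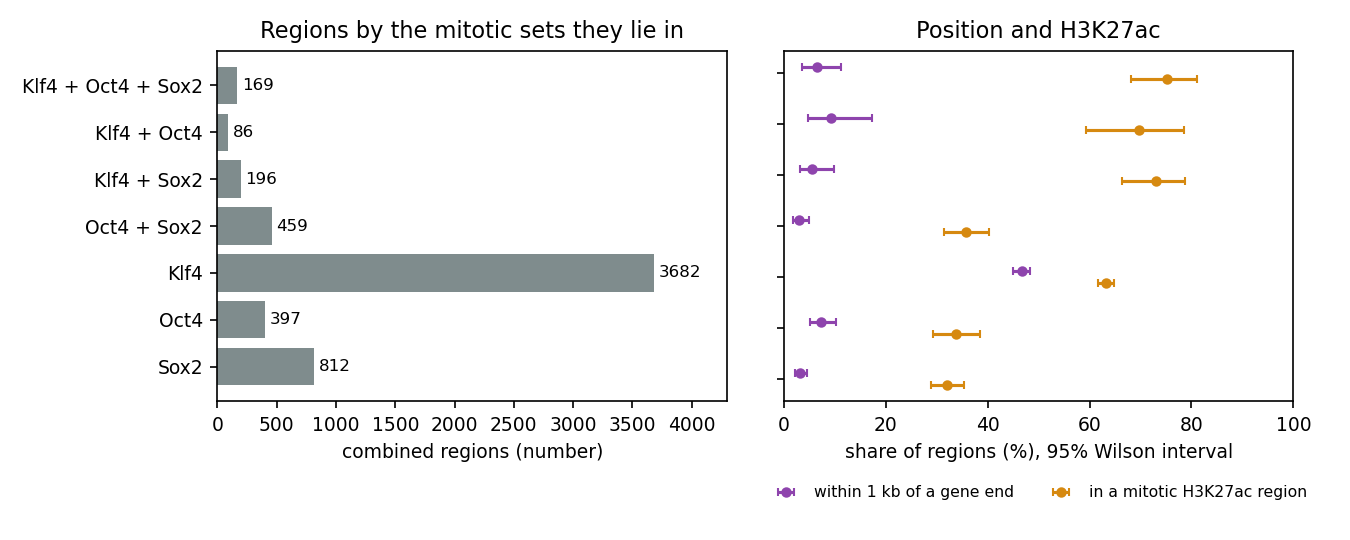
Left, the number of combined regions (x axis) in each of the 7 combinations of mitotic sets (y axis), from 86 for Klf4 with Oct4 to 3682 for Klf4 alone. Right, the share of regions in each combination (%, points with 95% Wilson intervals) that lay within 1 kb of a gene end (purple) or in a mitotic H3K27ac region (orange). Klf4 alone stands out for gene ends at 46.7%, and the 3 combinations of Klf4 with another factor have the highest H3K27ac shares, 69.8% to 75.1%.

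Klf4 regions lay in the Oct4 set in 6.15% of cases (5.45 to 6.92) and in the Sox2 set in 8.83% (8.0 to 9.74). Of Oct4 regions, 22.8% (20.5 to 25.4) lay in the Klf4 set and 56.6% (53.7 to 59.5) in the Sox2 set. Of Sox2 regions, 22.3% (20.4 to 24.4) lay in the Klf4 set and 38.4% (36.1 to 40.8) in the Oct4 set. Where regions overlapped, their midpoints were close, with a median of 51.8 bp between Klf4 and Oct4, 48 bp between Klf4 and Sox2, and 36.5 bp between Oct4 and Sox2. Besides those that overlapped, 4 Oct4 regions had a Sox2 region within 1 kb and 42 (3.77%) within 20 kb, 17 had a Klf4 region within 1 kb and 129 (11.6%) within 20 kb, and 147 Sox2 regions (8.97%) had a Klf4 region within 20 kb.

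A region in 1 set alone was not always free of the other factors. Of the 397 regions in the Oct4 set alone, 214 had a peak in a Sox2 list, and of the 812 in the Sox2 set alone, 441 had a peak in an Oct4 list. Of the 3682 regions in the Klf4 set alone, 222 had a peak in an Oct4 list and 294 in a Sox2 list, so 88.4% had Klf4 peaks and no others. Counted against any list, 79.7% of the Oct4 set met Sox2 and 43.4% met Klf4, while 71.6% of the Sox2 set met Oct4 and 41.1% met Klf4.

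These shares moved with the lists and the rule used. The Oct4 set lay in the Sox2 set for 47.4% and in the Klf4 set for 9.11% when all lists were limited to their 1246 strongest peaks. Without Oct4 mitotic 1 the Oct4 set was the 5282 peaks of 1 list, of which 21.8% lay in the Sox2 set and 10.5% in the Klf4 set. Without Klf4 mitotic 1 or Klf4 mitotic 3, 13.6% or 11.4% of Oct4 regions and 13.9% or 11.4% of Sox2 regions lay in the Klf4 set. The number of Oct4 regions in both other sets was 168 with all lists, 96 without Klf4 mitotic 3 and 262 without Oct4 mitotic 1. Within project EC-EA-3702, where 1 Klf4 list stands for the factor, the Oct4 set met Sox2 in 56.6% and Klf4 in 38.0%. That Sox2 share is the main value again, since all Oct4 and Sox2 lists are of this project. It also could not change when a Klf4 list was left out or a peak in all lists was asked for. The Oct4 share in Sox2 was above that in Klf4 under every alternative that was run.

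Lists compared as pairs, each at 1246 peaks, showed the same order with the library as the unit. The overlap, regions in both lists as a percent of all merged regions of the pair, was 17.4% to 23.7% between Klf4 lists, 33.7% between the Oct4 lists and 46.4% between the Sox2 lists. Between factors it was 2.72% to 4.98% for Klf4 with Oct4, 3.62% to 6.28% for Klf4 with Sox2, and 21.5% to 29.9% for Oct4 with Sox2. The range for Oct4 with Sox2 thus overlapped that between Klf4 lists, and no pair of Klf4 with another factor reached either. Klf4 mitotic 3, of the project that holds the Oct4 and Sox2 lists, overlapped the other Klf4 lists at 23.7% and 17.4% and the Oct4 and Sox2 lists at 3.8% to 6.28%.

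Lists of the same factor overlapped by 28.7% on average and lists of different factors by 9.22%, a difference of 19.5 percentage points. An exact permutation test of the factor labels over the 7 libraries, in 1 direction, gave p = 0.00952, the smallest that its 210 assignments allow. Within project EC-EA-3702 the difference was 25.3 points, with an exact p of 0.0667, again the smallest possible. With the lists as deposited the difference was 15.5 points over all 7 libraries (exact p = 0.0190) and 11.5 points within EC-EA-3702 (exact p = 0.133), and the 2 Oct4 lists overlapped by 20.6%, below the Oct4 with Sox2 mean of 24.0%. Without any 1 of the 7 libraries the difference was 16.2 to 23.5 points, with exact p between 0.05 and 0.0667, so the call at 0.05 was not made with any 6 of them. Without a Klf4 list 0.0667 is the smallest p that can be had, so those 3 runs could not make the call at any difference.

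**Figure D2:**
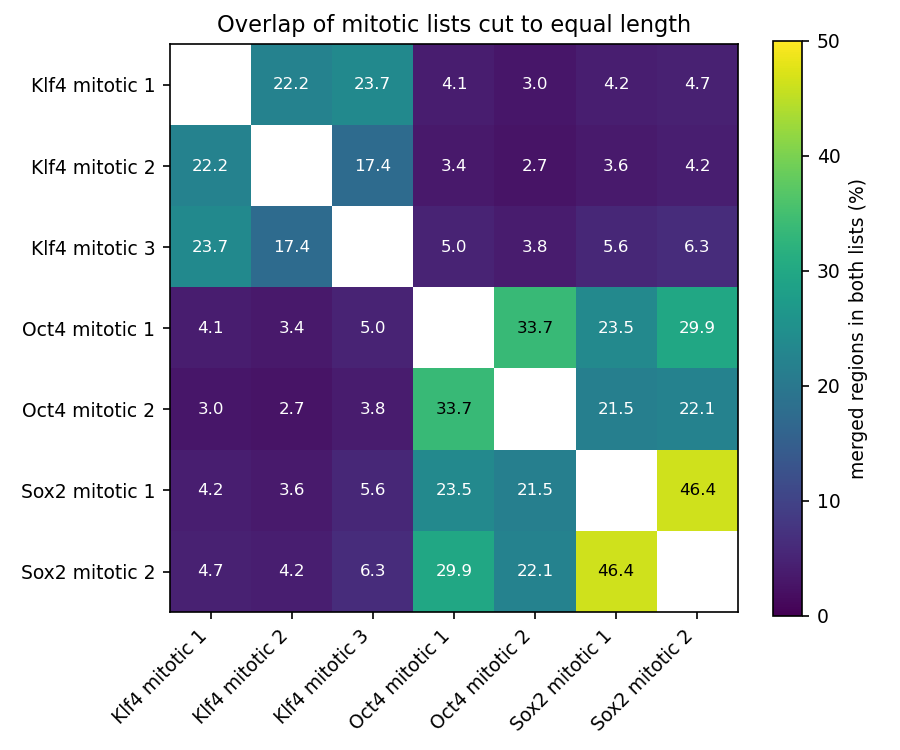
Overlap of each pair of mitotic lists (rows and columns) cut to the 1246 strongest peaks, as the percent of merged regions with a peak in both lists (colour and number). Oct4 and Sox2 lists form a block at 21.5% to 46.4%, Klf4 lists a block at 17.4% to 23.7%, and Klf4 meets the others at 6.28% or less.

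The factors sat at different places. Klf4 peaks were common at gene ends, while Oct4 and Sox2 peaks were rare there and lay more often far from genes. The share of peaks within 1 kb of either end of a protein-coding gene was 42.4%, 42.8% and 30.4% in the Klf4 lists, 5.70% and 5.02% in the Oct4 lists, and 4.19% and 3.09% in the Sox2 lists. Every Klf4 list was above every Oct4 and Sox2 list. The means were 38.5% ± 7.01 for Klf4 (SD, n = 3), 5.36% ± 0.482 for Oct4 and 3.64% ± 0.774 for Sox2 (SD, n = 2 each). The exact permutation test over the 3 factors gave p = 0.00952, the smallest possible, and 0.0190 after Benjamini-Hochberg adjustment over 4 measures.

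The share inside a gene and away from its ends was 28.9%, 28.0% and 33.2% in the Klf4 lists, 40.2% and 40.2% in the Oct4 lists, and 38.1% and 37.7% in the Sox2 lists (exact permutation p = 0.0190, adjusted 0.0254). The share outside genes and over 50 kb from any gene end was 9.33%, 9.46% and 11.05% in the Klf4 lists, 21.4% and 22.5% in the Oct4 lists, and 24.3% and 27.01% in the Sox2 lists (exact permutation p = 0.00952, adjusted 0.0190). Klf4 lists were lowest in both measures with no overlap. Both shares, and their tests, are over all peaks of a list, so many Klf4 peaks at gene ends leave less for these places. Taken over the peaks away from gene ends, the share inside genes was higher in every Klf4 list than in every Oct4 and Sox2 list. Far from genes the Klf4 lists stayed lowest on that base. Single contrasts could not pass 0.05: Klf4 against Oct4 or against Sox2 gave an exact p of 0.1 and Oct4 against Sox2 an exact p of 0.33 in all 3 position measures, the smallest these numbers of lists allow. Klf4 mitotic 3 alone, which shares its project with the Oct4 and Sox2 lists, had 30.4% of its peaks near gene ends, 25.9 points above the mean of the other factors. Without any 1 of the 7 libraries the difference at gene ends was 31.9 to 38.1 points (exact p 0.0667 to 0.0833) and that inside genes -10.6 to -8.01 points (exact p 0.05 to 0.0667), so these calls were not made with any 6 libraries. Far from genes the exact p was 0.0667 without any 1 Klf4 list, the smallest that can then be had, and the call held without any 1 Oct4 or Sox2 list.

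**Figure D3:**
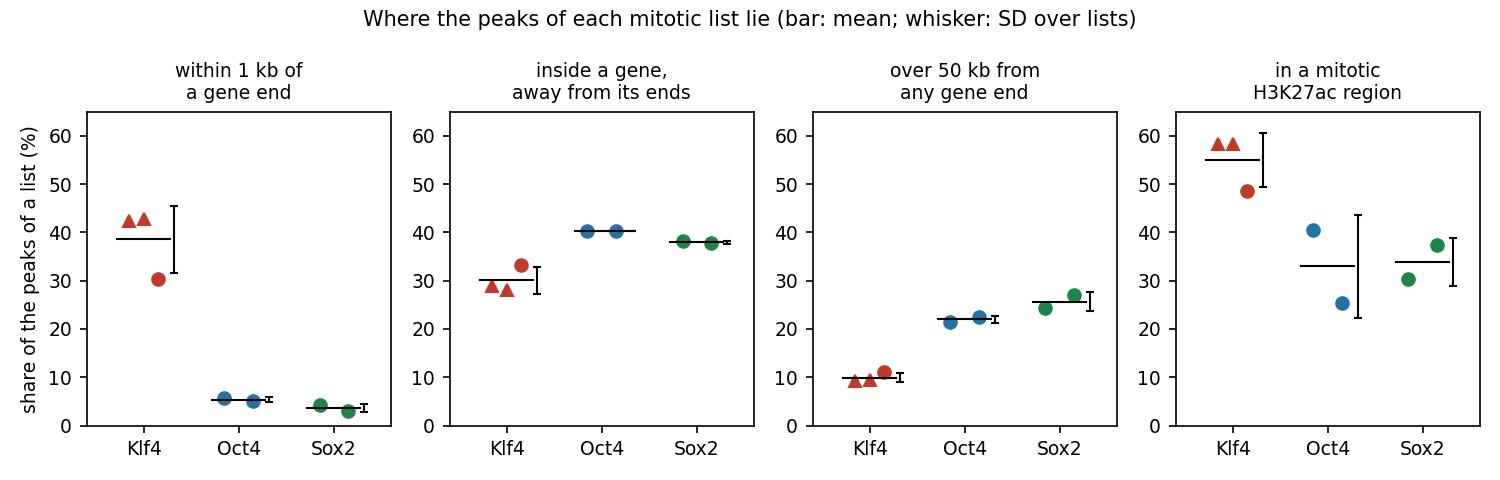
Share of the peaks of each mitotic list (y axis, %) in 4 kinds of place, by factor (x axis). Each point is a list (triangles project EC-DG-3514, circles EC-EA-3702), bars are means and whiskers SD over lists. The Klf4 lists lie above the others near gene ends, at 30.4% to 42.8% against at most 5.70%, and below them far from genes. Far means outside genes and over 50 kb from any gene end.

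With strand known for 17469 of the genes, transcription starts and 3′ ends could be told apart (a split chosen after seeing the data). Peaks within 1 kb of a start made up 34.6% ± 7.13 of the Klf4 lists (SD, n = 3), 3.80% ± 0.386 of the Oct4 lists and 2.28% ± 0.264 of the Sox2 lists (SD, n = 2 each; exact permutation p = 0.00952 over 3 factors). Peaks within 1 kb of a 3′ end alone made up 1.44% ± 0.249, 1.24% ± 0.233 and 1.24% ± 0.242 of the Klf4, Oct4 and Sox2 lists (exact permutation p = 0.562). Taken over the peaks not near a start, since the many start peaks of Klf4 enlarge its total, the shares at 3′ ends were 2.43%, 1.92% and 2.24% in the Klf4 lists, 1.13% and 1.46% in the Oct4 lists, and 1.45% and 1.10% in the Sox2 lists (exact permutation p = 0.0476). Every Klf4 list was above the others by this measure. The median distance of a set region to the nearest start was 8.83 kb for Klf4, 44.5 kb for Oct4 and 54.9 kb for Sox2. A set region lay directly on a promoter window in 33.0% of Klf4 regions, 1.95% of Oct4 regions and 0.887% of Sox2 regions.

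Klf4 regions at gene ends were mostly those of Klf4 alone. Gene ends held 46.7% of regions in the Klf4 set alone, but 6.51% of regions in all 3 sets, 9.30% of those of Klf4 and Oct4, and 5.61% of those of Klf4 and Sox2. For regions of Oct4 and Sox2 without Klf4 the share was 3.05%.

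Regions with Klf4 were the more often acetylated ones. A region with a peak in both mitotic H3K27ac lists covered 75.1% of regions in all 3 sets, 69.8% of those of Klf4 and Oct4, 73.0% of those of Klf4 and Sox2, and 63.2% of those of Klf4 alone. It covered 35.7% of regions of Oct4 and Sox2, 33.8% of Oct4 alone and 32.0% of Sox2 alone. Since promoters often carry the mark, the comparison was repeated away from gene ends. There the shares were 74.7% (67.4 to 80.8, 95% Wilson interval) for all 3 sets, 67.9% (57.0 to 77.3) for Klf4 and Oct4, 73.0% (66.2 to 78.9) for Klf4 and Sox2, and 53.5% (51.3 to 55.7) for Klf4 alone. They were 36.2% (31.9 to 40.7) for Oct4 and Sox2, 33.2% (28.5 to 38.1) for Oct4 alone and 31.6% (28.4 to 34.9) for Sox2 alone.

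The same held in each Oct4 and Sox2 library, over its peaks away from gene ends. Of Oct4 mitotic 1 peaks, 69.5% inside the Klf4 set and 31.4% outside it were acetylated, and of Oct4 mitotic 2 peaks 67.6% inside and 19.6% outside. Of Sox2 mitotic 1 peaks it was 67.1% inside and 23.1% outside, and of Sox2 mitotic 2 peaks 69.9% inside and 29.0% outside. The difference of 38.1 to 48.1 points was in 1 direction in 4 of 4 libraries. The partner among Oct4 and Sox2 went with a smaller difference: Oct4 peaks inside and outside the Sox2 set were acetylated in 41.5% and 37.9% (Oct4 mitotic 1) and 44.3% and 18.8% (Oct4 mitotic 2). Klf4 peaks inside and outside the Oct4 set were acetylated in 65.0% and 46.6%, 75.2% and 46.3%, and 62.2% and 38.7% in Klf4 mitotic 1, 2 and 3. Wider regions can meet an acetylated region more often: the median width was 622 bp in all 3 sets, 492 bp for Oct4 and Sox2, and 464, 364 and 397.5 bp for Klf4, Oct4 and Sox2 alone, and its part was not tested. Over whole lists the share in H3K27ac regions was 58.3%, 58.2% and 48.5% in the Klf4 lists, 40.5% and 25.5% in the Oct4 lists, and 30.4% and 37.3% in the Sox2 lists, with an exact permutation p of 0.0571 (adjusted 0.0571), which missed 0.05. The exact p was 0.0190 with lists of equal length and 0.0381 with peaks of a −log10 q of at least 5. The H3K27ac lists and Klf4 mitotic 1 and 2 are of 1 project, and its part in the level of the Klf4 lists was not tested. A region of the Klf4 set needs 2 of 3 lists, so each has a peak in a list of that project. With the 1 Klf4 list of EC-EA-3702 in place of the set, a comparison added after seeing the data, 59.4% inside and 28.3% outside were acetylated (Oct4 mitotic 1), 56.3% and 16.6% (Oct4 mitotic 2), 56.1% and 19.8% (Sox2 mitotic 1), and 58.7% and 26.2% (Sox2 mitotic 2).

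Shared regions had stronger peaks than those of a factor alone. The median percentile of fold within a list was 68.8, 66.3 and 82.7 for shared regions against 53.8, 40.7 and 56.2 for Klf4 alone in the 3 Klf4 lists. It was 60.9 and 84.0 against 39.7 and 70.0 in the Oct4 lists, and 80.5 and 65.4 against 74.1 and 49.3 in the Sox2 lists. Shared regions were thus higher in 7 of 7 lists, by 6.36 to 26.5 percentile points. In 5 equal groups of the Oct4 set ordered by strength, from weak to strong, 31.8%, 45.5%, 53.8%, 67.6% and 84.3% lay in the Sox2 set, while 20.6%, 21.2%, 19.7%, 24.3% and 28.3% lay in the Klf4 set. A stronger region is also more readily called in a second list, and shared regions were wider (median 442 bp against 364 bp for Oct4 alone).

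The strongest region of all 3 sets lay inside Ubxn2a (chr12:4897870-4898675), with folds of 8.66, 8.76 and 15.1 in the Klf4 lists, 10.0 and 19.4 in the Oct4 lists, and 14.8 and 14.8 in the Sox2 lists. All 7 values were above the 97th percentile of their list. The second lay 93.8 kb from Tprg, the nearest gene by the midpoint of the region (chr16:25516860-25517822), with folds of 8.66, 6.07 and 20.3 in the Klf4 lists, 11.01 and 14.7 in the Oct4 lists, and 15.4 and 11.5 in the Sox2 lists. The other 8 of the 10 strongest were nearest to Olfr761, Rit2, Gm33153, Zfp978, Galntl6, Gabbr1, Gm21992 and Zbtb45.

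The strongest region of Klf4 and Oct4 lay with its edge 1.43 kb from Nodal, which encodes a TGF-beta family ligand (chr10:61415815-61416540). Its folds were 8.66, 6.74 and 11.4 for Klf4 and 5.93 and 12.3 for Oct4, no Sox2 peak was listed there, and its H3K27ac folds were 27.3 and 24.5. For Klf4 and Sox2 its midpoint lay 93.5 kb from Zbtb20, a zinc finger repressor gene (chr16:42781575-42782707), at 9.14, 7.41 and 24.5 for Klf4 and 16.3 and 11.2 for Sox2. For Oct4 and Sox2 it lay inside Abca4, a retinal transporter gene (chr3:122145154-122146102), at 18.3 and 58.2 for Oct4 and 31.2 and 22.3 for Sox2, with no Klf4 peak. The Abca4 region was the highest of Oct4 mitotic 1, Oct4 mitotic 2 and Sox2 mitotic 1.

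Of Klf4 alone, the strongest region had its midpoint 33.0 kb from Grap, an adaptor protein gene (chr11:61619872-61620850), at 10.6, 11.5 and 28.2, with no H3K27ac peak. Another lay in Hdac4, a histone deacetylase gene, over one of its starts (chr1:92180190-92181253), at 11.4, 11.1 and 17.96, with H3K27ac folds of 18.6 and 21.4. Of Oct4 alone, the strongest had its midpoint 36.9 kb from Rerg (chr6:137017597-137018204), at 16.7 and 20.4, where Klf4 mitotic 3 also had a peak of 4.71. Of Sox2 alone, it lay in Sptlc2, a gene of sphingolipid synthesis (chr12:87317761-87318552), at 24.8 and 18.4, where Klf4 mitotic 3 and Oct4 mitotic 2 had peaks of 4.12 and 5.24. The 5 strongest regions of Oct4 alone had no mitotic H3K27ac region, and 3 of the 5 of Sox2 alone had one.

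Genes near the sets were counted next, a gene being a neighbour when a set region lay within 20 kb of its span. Of 21887 protein-coding genes, 5060 (23.1%) neighboured the Klf4 set, 951 (4.35%) the Oct4 set, 1229 (5.62%) the Sox2 set and 304 (1.39%) all 3. Of these 304, 178 had a region of all 3 sets and 126 were reached by separate regions. These counts moved with single lists. Without Klf4 mitotic 1 or Klf4 mitotic 3 the set neighboured 2791 or 2774 genes and 196 or 177 genes neighboured all 3 sets. Without Oct4 mitotic 1 the Oct4 set neighboured 3927 genes and all 3 sets 497, and without Sox2 mitotic 2 the Sox2 set neighboured 3200.

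Among the gene lists, naive pluripotency had the highest share of genes that neighboured all 3 sets. Of 41 such genes, 25 neighboured Klf4, 17 Oct4, 17 Sox2 and 11 all 3, or 61.0%, 41.5%, 41.5% and 26.8%, above the shares over all genes given before. The 11 were Nanog, Pou5f1, Sox2, Klf2, Esrrb, Tbx3, Rif1, Mybl2, Mycn, Spp1 and Trim28, and 8 of them had a region of all 3 sets. The genes of Oct4 and Sox2 themselves each neighboured all 3 sets, while Klf4 itself neighboured the Klf4 set alone. The gene lists were chosen with results of these data known, and no test was made over them.

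At Pou5f1 the shared region lay 1.72 kb outside the gene (chr17:35503707-35504313). Its folds were 7.70 and 5.84 in Klf4 mitotic 1 and 3 (none in 2), 6.15 and 12.2 for Oct4, and 9.08 and 3.95 for Sox2. At Sox2 it lay 1.37 kb outside the gene (chr3:34653833-34654416), at 5.29 and 4.39 in Klf4 mitotic 1 and 3, 7.54 and 16.6 for Oct4, and 15.9 and 12.4 for Sox2. Both regions had H3K27ac. Klf2, a close relative of Klf4, had 2 regions of all 3 sets, and the one 12.6 kb from the gene was in all 7 lists, at 8.66, 7.38 and 5.73 in the Klf4 lists, 7.2 and 6.94 in the Oct4 lists, and 6.72 and 8.60 in the Sox2 lists. Over these 3 regions the folds were 4.39 to 8.66 in the Klf4 lists and 3.95 to 16.6 in the Oct4 and Sox2 lists.

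Other naive genes divided between the factors. Klf5, Zfp42, Prdm14, Nr5a2, Fbxo15, Lin28a, Tdgf1, Fgf4 and Etv5 neighboured the Klf4 set alone, like Klf4. Some of their regions had a peak in a single list of another factor, such as 4.84 in Oct4 mitotic 2 at Zfp42. A region each of Fbxo15, Lin28a and Fgf4 had a peak in 1 Oct4 list and 1 Sox2 list. Their Oct4 and Sox2 folds were 4.09 and 3.85, 3.96 and 3.51, and 3.68 and 4.74. Dppa3, Gdf3, Lefty1 and Lefty2 neighboured the Oct4 and Sox2 sets and not the Klf4 set, and the last 3 encode a ligand and antagonists of the TGF-beta family. Dppa3 and Gdf3 are neighbours and share 2 regions, among them one of Oct4 and Sox2 at 11.2 and 13.0 for Oct4 and 7.87 and 7.25 for Sox2 (chr6:122624383-122624938). Single Klf4 lists had peaks there all the same: 9.14 in Klf4 mitotic 1 at the Lefty2 region, above its Oct4 (5.57 and 3.40) and Sox2 (4.19 and 3.82) values, and 4.47 in Klf4 mitotic 3 at the second region of Dppa3 and Gdf3. Esrrb, an orphan nuclear receptor gene, had 5 regions inside it, of which 3 were of Klf4 alone, 1 of Oct4 alone and 1 of Klf4 and Sox2. Trim28 shared its region of all 3 sets with Zbtb45.

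**Figure D4:**
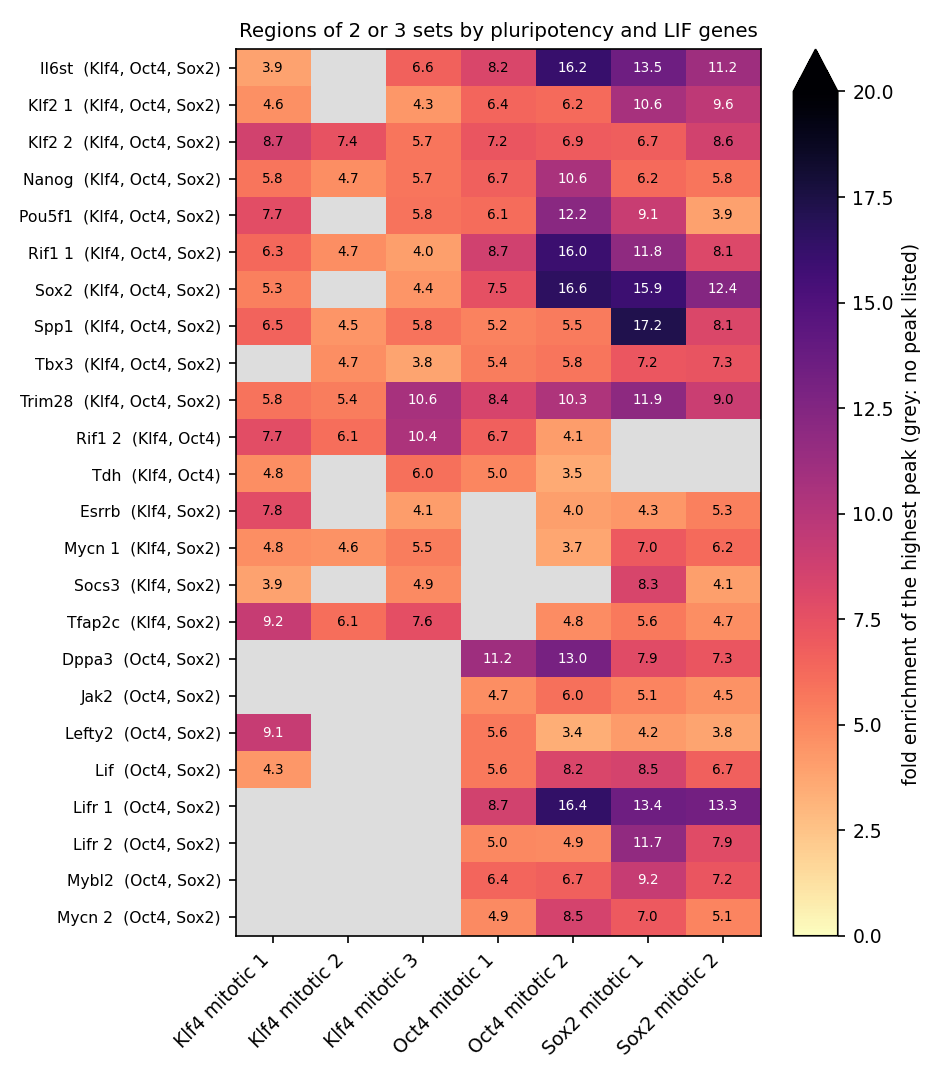
Fold enrichment (colour and number) of the highest peak in each of the 7 mitotic lists (columns) for the 24 regions of 2 or 3 sets within 20 kb of 20 naive pluripotency and LIF pathway genes (rows, with the sets in parentheses). Grey cells had no listed peak. Nanog, Klf2, Rif1, Spp1 and Trim28 have a region with a peak in all 7 lists, and the regions of Oct4 and Sox2 alone are grey for Klf4 or have a single Klf4 value.

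In the LIF pathway, which sustains these cells in culture, 12 of 18 genes neighboured Klf4 (66.7%, against 23.1% of all genes), 5 Oct4 (27.8% against 4.35%), 5 Sox2 (27.8% against 5.62%) and 2 all 3 (11.1% against 1.39%). The 2 were those of the receptor, Lifr and Il6st. At Il6st, the region 1.09 kb outside the gene had folds of 3.89 and 6.62 in Klf4 mitotic 1 and 3, 8.25 and 16.2 for Oct4, and 13.5 and 11.2 for Sox2. Lifr was reached by separate regions: inside it, one of Oct4 and Sox2 stood at 8.66 and 16.4 for Oct4 and 13.4 and 13.3 for Sox2, and one of Klf4 alone at 4.33 and 4.52 in Klf4 mitotic 1 and 2. The ligand gene Lif and the kinase gene Jak2 neighboured the Oct4 and Sox2 sets and not the Klf4 set, though the Lif region had a peak of 4.33 in Klf4 mitotic 1. The targets and feedback genes Socs2, Pim1, Pim3, Junb and Bcl3 neighboured the Klf4 set alone, and Socs3, a feedback inhibitor, the Klf4 and Sox2 sets.

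The factors' own families were counted too. Of 26 Klf and Sp genes, 16 neighboured Klf4 (61.5%, against 23.1% of all genes), 3 Oct4 (11.5% against 4.35%) and 2 Sox2 (7.69% against 5.62%), and the 2 in all 3 sets were Klf2 and Klf13. Among those in the Klf4 set alone was Klf3, with folds of 8.18, 6.74 and 15.2 over a region that overlaps the gene. Of 33 Pou and Sox genes, 8 neighboured Klf4 (24.2%, against 23.1% of all genes), 4 Oct4 (12.1% against 4.35%) and 8 Sox2 (24.2% against 5.62%), and those in all 3 sets were Pou5f1, Sox2 and Sox13. Sox6, Sox21 and Sox30 neighboured the Sox2 set alone. Sox6 stood at 13.1 and 7.34 with no peak of another factor, while the regions of Sox21 and Sox30 also had a peak in Oct4 mitotic 2, at 6.23 and 5.97.

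Chromatin regulators neighboured Klf4 in 26 of 46 cases (56.5%, against 23.1% of all genes), and Oct4 and Sox2 in 7 each (15.2%, against 4.35% and 5.62% of all genes). Jarid2, a cofactor of Polycomb complex PRC2, and Tet2, which oxidises methylated cytosine, each had a region of all 3 sets. Tet2 had folds of 4.72, 4.57 and 8.63 in the Klf4 lists, 5.46 and 29.9 in the Oct4 lists, and 15.1 and 6.26 in the Sox2 lists. Kat6a, a histone acetyltransferase gene, neighboured all 3 sets through separate regions. Suz12, a subunit of PRC2, neighboured the Oct4 and Sox2 sets alone, at 6.83 and 10.2 for Oct4 and 8.33 and 10.6 for Sox2.

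Of 22 Wnt pathway genes, 7 neighboured Klf4 (31.8%), 3 Oct4 (13.6%) and 4 Sox2 (18.2%), beside 23.1%, 4.35% and 5.62% of all genes, and Tcf7l1, a repressor in the pathway, had a region of all 3 sets in all 7 lists. Of 25 Bmp and Nodal genes, 11 neighboured Klf4 (44%), 5 Oct4 (20%) and 3 Sox2 (12%), and Id3, a Bmp target, had such a region in all 7 lists. Of 21 primed and formative genes, 9, 3 and 2 (42.9%, 14.3% and 9.52%) neighboured Klf4, Oct4 and Sox2, with Foxd3 in all 3.

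Klf4 neighboured the most genes of junctions, glycolysis, ribosomes and mitosis, as it did over all genes. Epithelial junction and polarity genes neighboured Klf4 in 14 of 29 cases (48.3%), and Oct4 and Sox2 in 2 each (6.90%), beside 23.1%, 4.35% and 5.62% of all genes, with Pard3 in all 3. Glycolysis genes did so in 9, 1 and 2 of 23 (39.1%, 4.35% and 8.70%) for Klf4, Oct4 and Sox2. Ribosomal protein genes neighboured them in 10, 1 and 2 of 43 (23.3%, 2.33% and 4.65%), and Rps19 was in all 3. Mitotic machinery genes did so in 6, 2 and 1 of 38 (15.8%, 5.26% and 2.63%).

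Germ layer regulators had the lowest share of any list for Klf4 and for Sox2. Of 30 germ layer regulators, 2 neighboured Klf4 (Eomes and Evx1, 6.67%), 1 Oct4 (Pax3, 3.33%) and 0 Sox2, beside 23.1%, 4.35% and 5.62% of all genes. The Oct4 share was thus near that over all genes. For Sox2, 30 genes at 5.62% would hold few, so the 0 cannot be told from that share. Neural progenitor genes neighboured Klf4, Oct4 and Sox2 in 5, 2 and 2 of 22 (22.7%, 9.09% and 9.09%), and feeder fibroblast genes in 4, 2 and 1 of 20 (20%, 10% and 5%). For Klf4 both lists were near the share over all genes. No gene of these 3 lists neighboured all 3 sets, nor did any gene of the glycolysis and mitotic machinery lists, beside 1.39% of all genes. At that share, lists of this size would hold few such genes or none.

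**Figure D5:**
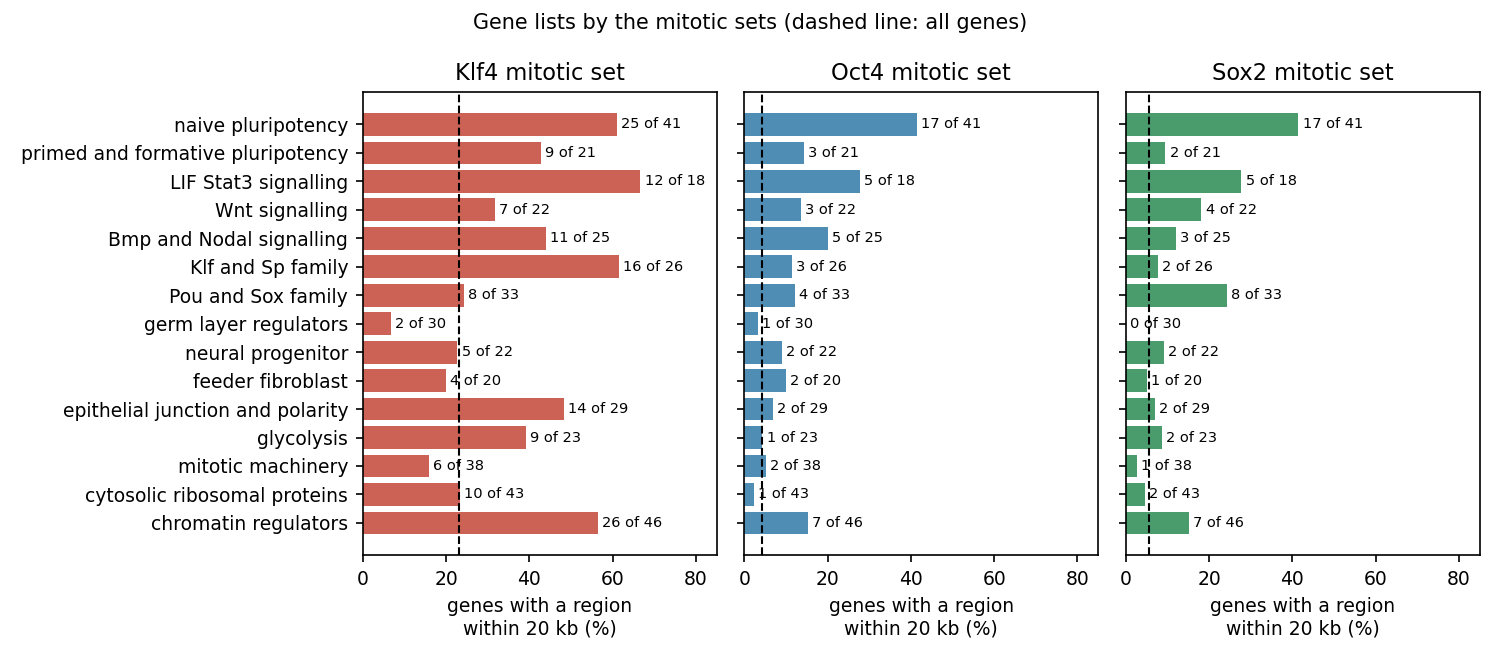
Share of the genes of each list (rows) with a region of the Klf4, Oct4 or Sox2 mitotic set within 20 kb (x axis, %), with counts beside the bars. The dashed line is the share over all 21887 protein-coding genes, 23.1% for Klf4, 4.35% for Oct4 and 5.62% for Sox2. Naive pluripotency genes stand at 61.0%, 41.5% and 41.5%, and germ layer regulators at 6.67%, 3.33% and 0%.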

How the data were processed

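ChIP-seq peak lists were used as the authors deposited them, 1 per library. Per the submitters' processing notes, the tools were cutadapt 1.8.1, Bowtie2 2.2.5, deepTools 2.3.6 and MACS2 2.1.1 and the build was mm10, while caller settings are not given in the sources used here. In the deposited lists a peak's enrichment is a fold (a ratio to local background, the authors' own value), and its p-value and q-value are given by the authors as −log10. All listed peaks had a −log10 p of at least 5, and summits were absent. Fold was used only to describe and rank peaks within a list. Depth is unknown, and intervals (95%, Wilson) cover counting error only.

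Peaks of a factor were merged where they shared 1 bp. Regions were placed against an mm10 (GRCm38.p6) RefSeq table of 21887 protein-coding genes without strand. Near a gene end means an edge within 1 kb of either end, and far means outside genes and over 50 kb from any end. Promoter windows of the RefSeq table gave strand and sequence for 17469 genes (chromosome 18 left out), and no genome sequence was used here. Libraries were compared by exact permutation over the 7 libraries (210 assignments) at a threshold of 0.05, with Benjamini-Hochberg adjustment over the 4 position and H3K27ac measures. The scripts were checked on simulated lists and run with Python 3.11.15, numpy 2.4.6, pandas 2.3.3, scipy 1.17.1 and matplotlib 3.10.9.

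The named regions are the 10 of all 3 sets and the 5 of each other combination with the highest mean percentile of fold and a peak in every list of the factors concerned, from which examples are given in full. Named list genes are those of the pluripotency, LIF, Klf and Sp, and Pou and Sox lists by the sets they neighbour, and for other lists those that neighbour all 3. 1 gene of the chromatin regulator list is not reported here by name. Suz12, Klf3, Sox6, Eomes, Evx1 and Pax3, and the promoters printed, were chosen after their values were seen. The regions and lists were chosen with earlier results of these data known. Alternatives were another number of lists, a −log10 q of at least 5, lists of equal length, 1 project, other distances and leaving out each library.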

Additional observations from a re-analysis of the deposited data

How the results depend on the processing

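Of 132 values recomputed under alternatives other than leaving out a library, 87 were counted as unchanged, 41 moved, 1 lost and 2 gained their call, and 1 changed sign. A large part of the 132 are differences between single factors in position or H3K27ac. For these, unchanged means only that the sign was kept. For the other values it means staying on their side of the threshold or within the spread allowed. With a peak in any list, the Klf4, Oct4 and Sox2 sets had 12026, 5406 and 4822 regions, 837 Oct4 regions lay in both other sets, 42.9% of Oct4 regions lay in the Sox2 set and 30.0% of Sox2 regions in the Klf4 set. With a peak in all lists, the Klf4 set had 1504 regions, 94 Oct4 regions lay in both other sets, and 10.96% of Oct4 and 11.2% of Sox2 regions lay in the Klf4 set. At a −log10 q of at least 5 the sets had 739, 251 and 479 regions, 17 Oct4 regions lay in both others, 52.6% and 9.16% of Oct4 regions lay in the Sox2 and Klf4 sets, and 8.77% of Sox2 regions in the Klf4 set. With lists of equal length the sets had 797, 626 and 788 regions, 37 Oct4 regions lay in both others, 47.4% and 9.11% of Oct4 regions lay in the Sox2 and Klf4 sets, 9.77% of Sox2 regions lay in the Klf4 set, and 1111, 560, 638 and 76 genes neighboured Klf4, Oct4, Sox2 and all 3. With project EC-EA-3702 only, the Klf4 set was 8438 peaks near 7676 genes, 263 Oct4 regions lay in both others, and 38.0% of Oct4 and 36.5% of Sox2 regions lay in the Klf4 set. Within 50 kb, 1602, 2109 and 588 genes neighboured Oct4, Sox2 and all 3, and counting nearest genes only, 3365 neighboured Klf4.

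In project EC-EA-3702 alone, list overlap within minus between factors was 25.3 points (exact p = 0.0667). Klf4 minus the mean of Oct4 and Sox2 was there 25.9 points near gene ends, -5.88 inside genes, -12.8 far from genes and 15.1 in H3K27ac regions. The H3K27ac difference was 27.5 points with equal lists (exact p = 0.0190) and 23.2 at the stricter q (exact p = 0.0381). Oct4 minus Sox2 in H3K27ac regions was -0.838 points, and 0.244 by peak midpoint. Fewer peaks were used with equal lists and the stricter q. The cause of these shifts was not tested.

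Leaving out each library gave set sizes of 1905 to 3201 (Klf4), 1246 to 5282 (Oct4) and 1940 to 4537 (Sox2), and 96 to 262 Oct4 regions in both others. It gave 21.8% to 75.1% of Oct4 regions in the Sox2 set, 10.5% to 22.8% in the Klf4 set, and 11.4% to 22.3% of Sox2 regions in the Klf4 set. Genes ranged over 2774 to 4061 (Klf4), 1046 to 3927 (Oct4), 1396 to 3200 (Sox2) and 177 to 497 (all 3). List overlap within minus between factors was 16.2 to 23.5 points. Klf4 minus the mean of the others was 31.9 to 38.1 points near gene ends (exact p 0.0667 to 0.0833), -10.6 to -8.01 inside genes (exact p 0.05 to 0.0667) and -14.6 to -13.2 far from genes (exact p 0.0167 to 0.0667), without a change of sign. Oct4 minus Sox2 in H3K27ac regions was -8.37 to 6.69 points, turning to 6.69 without Oct4 mitotic 2 and 2.65 without Sox2 mitotic 2. Without a Klf4 list the smallest possible p is 0.0667, so a call cannot be made there.

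Of the 40 named regions, 26 stayed in their combination with a peak in any list, 30 at the stricter q, 37 with equal lists and 34 to 40 without a library. Chosen for a peak in every list of their factors, they could not leave their own sets when a library was left out. The 40 of 40 without any 1 Klf4 list was thus fixed by the choice. No paired analysis was possible because the results are peak lists and overlaps, the Klf4 numbers only follow accession order, and no label ties a number to a shared culture or day. Read depth is unknown, so short lists such as Oct4 mitotic 1 and Sox2 mitotic 2 limit what each set could hold, and a region outside a set may have been missed.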
